A study of Mus musculus with 8 samples.

Results

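Mitosis and chromosome segregation genes are described here as a set of 49 genes that encode the machinery of cell division. They were chosen by name, with earlier results of these data known. Each was represented by the probe set of its gene symbol with the highest mean level over the arrays. Of the 49 genes, 48 had such a probe set among the 18193 genes measured, and Ccnb1 was not analysed here. All 48 passed the filter on low values in both cell types. The 48 probe sets lay above the median of all probe sets on each of the 8 arrays. The choice of each gene's brightest probe set on these same arrays favours that position.

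The study asked what the X-linked zinc finger transcription factor Zfx does in mouse stem cells. It measured 4 groups of 2 Affymetrix arrays each, with intensities on a linear scale. The first pair compared Zfx-null embryonic stem cell (ESC) clones with control Zfx-flox clones, all grown without feeders on gelatin in medium with Knockout SR and LIF, a cytokine that keeps ESC undifferentiated. The other pair compared Lin- Sca-1+ c-Kit+ marrow cells, labelled HSC, of Zfx-cko mice with those of Zfx-flox mice. Zfx-cko mice were Mx1-Cre+ Zfx flox/y, and their littermate controls were Zfx flox/y without Cre, so both HSC groups carried the floxed allele. Marrow of 4 to 6 mice was pooled and collected 4 days after the last injection of pI·C, which induces the Mx1 promoter. Mx1-Cre acts in many interferon-responsive cells and not in stem cells alone, and the sorted population holds multipotent progenitors beside stem cells. HSC RNA (0.1 µg) went through 2 rounds of amplification and ESC RNA (2.5 µg) through 1, so levels were not tested between the cell types. Samples were hybridized in duplicate, and nothing says that the arrays of a group came from separate cultures or mouse pools. The p-values rest on the spread between these arrays alone, which may be technical.

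Mitosis begins when cyclin B and the kinase Cdk1, activated by Cdc25 phosphatases, phosphorylate the proteins that condense chromosomes and build the spindle. The spindle checkpoint then holds the anaphase-promoting complex inactive until all kinetochores have attached to microtubules. Its release destroys securin and cyclin B, frees separase to cut cohesin, and leaves the central spindle proteins to divide the cell. Many of these genes are transcribed late in the cell cycle from promoters that hold a cell cycle homology region (CHR), bound by the MuvB core complex with B-Myb and Foxm1, and CCAAT boxes, bound by NF-Y. ESC divide quickly and express these genes at high levels, whereas most long-term stem cells of the marrow rest and the progenitors sorted with them divide.

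The promoters of 4 members show the range of the changes described below: Ccnb2 and Cenpa, lower in both cell types after loss of Zfx, Mybl2, with the largest fall in ESC, and Nusap1, lower in ESC and higher in HSC. Sequences are from RefSeq (GRCm38.p6) and run 5′ to 3′ along the gene, from 250 bases before to 50 bases after its start. Capitals mark the CCAAT box (CCAAT) and the CHR forms TTTGAA and TTTAAA on either strand.
Ccnb2, chr9:70421505-70421804, minus strand: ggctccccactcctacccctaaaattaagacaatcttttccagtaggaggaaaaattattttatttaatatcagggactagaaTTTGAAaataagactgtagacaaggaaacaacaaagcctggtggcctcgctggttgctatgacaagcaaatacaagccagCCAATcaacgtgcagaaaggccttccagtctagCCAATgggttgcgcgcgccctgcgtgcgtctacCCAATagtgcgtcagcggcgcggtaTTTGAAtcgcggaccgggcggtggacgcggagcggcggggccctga
Cenpa, chr5:30666636-30666935, plus strand: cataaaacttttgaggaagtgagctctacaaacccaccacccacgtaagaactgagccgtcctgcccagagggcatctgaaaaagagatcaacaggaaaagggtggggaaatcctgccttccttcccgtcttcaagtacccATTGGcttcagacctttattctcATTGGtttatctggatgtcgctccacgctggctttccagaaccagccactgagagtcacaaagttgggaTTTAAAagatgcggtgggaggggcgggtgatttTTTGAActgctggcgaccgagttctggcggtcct
Mybl2, chr2:163054385-163054684, plus strand: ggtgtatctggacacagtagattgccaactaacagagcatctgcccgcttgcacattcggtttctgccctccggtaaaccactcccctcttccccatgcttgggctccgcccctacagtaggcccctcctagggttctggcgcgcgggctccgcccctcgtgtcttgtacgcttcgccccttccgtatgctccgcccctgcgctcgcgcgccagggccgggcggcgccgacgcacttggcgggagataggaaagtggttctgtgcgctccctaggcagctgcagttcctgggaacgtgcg
Nusap1, chr2:119618048-119618347, plus strand: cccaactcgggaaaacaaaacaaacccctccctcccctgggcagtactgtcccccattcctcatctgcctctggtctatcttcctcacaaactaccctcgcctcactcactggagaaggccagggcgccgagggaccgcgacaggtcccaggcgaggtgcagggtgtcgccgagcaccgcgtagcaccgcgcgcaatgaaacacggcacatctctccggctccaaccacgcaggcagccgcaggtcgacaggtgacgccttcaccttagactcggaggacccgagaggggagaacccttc
The promoter of Ccnb2 held 3 CCAAT boxes, at -87, -54 and -21 bases from the start, and TTTGAA at -167 and 4. That of Cenpa held 2 CCAAT boxes, at -109 and -86, with TTTAAA at -17 and TTTGAA at 16. The windows of Mybl2 and Nusap1 held 0 matches to these motifs.

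Among all members, 40 had a promoter in the RefSeq table, which was compared with 17492 promoters of protein-coding genes, the first start listed for each. TTTGAA was found in 28 of the 40 promoters (70%) and in 16.5% of all promoters. CCAAT was found in 30 of 40 (75%) and in 39.0% of all, and more than 1 CCAAT box in 47.5% of the members and 13.5% of all. A CCAAT box together with TTTGAA or TTTAAA was present in 67.5% of the members and 10.3% of all promoters. TTTAAA, with or without TTTGAA, was in 22.5% of the members and 12.1% of all. The other CHR forms searched were TTCGAA, in 10.0% and 1.87%, and TTTCAA, in 30.0% and 13.5%; a TTTCAA on one strand overlaps TTTGAA on the other where a further A follows. The core of the ZFX binding motif, AGGCCT, was in 3 of 40 members (7.5%) and in 10.0% of all promoters. The 64 CCAAT matches had a median position of -66 bases and the 36 TTTGAA matches a median of -16. These shares are a description of the letters in this window, on both strands.

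**Figure D1:**
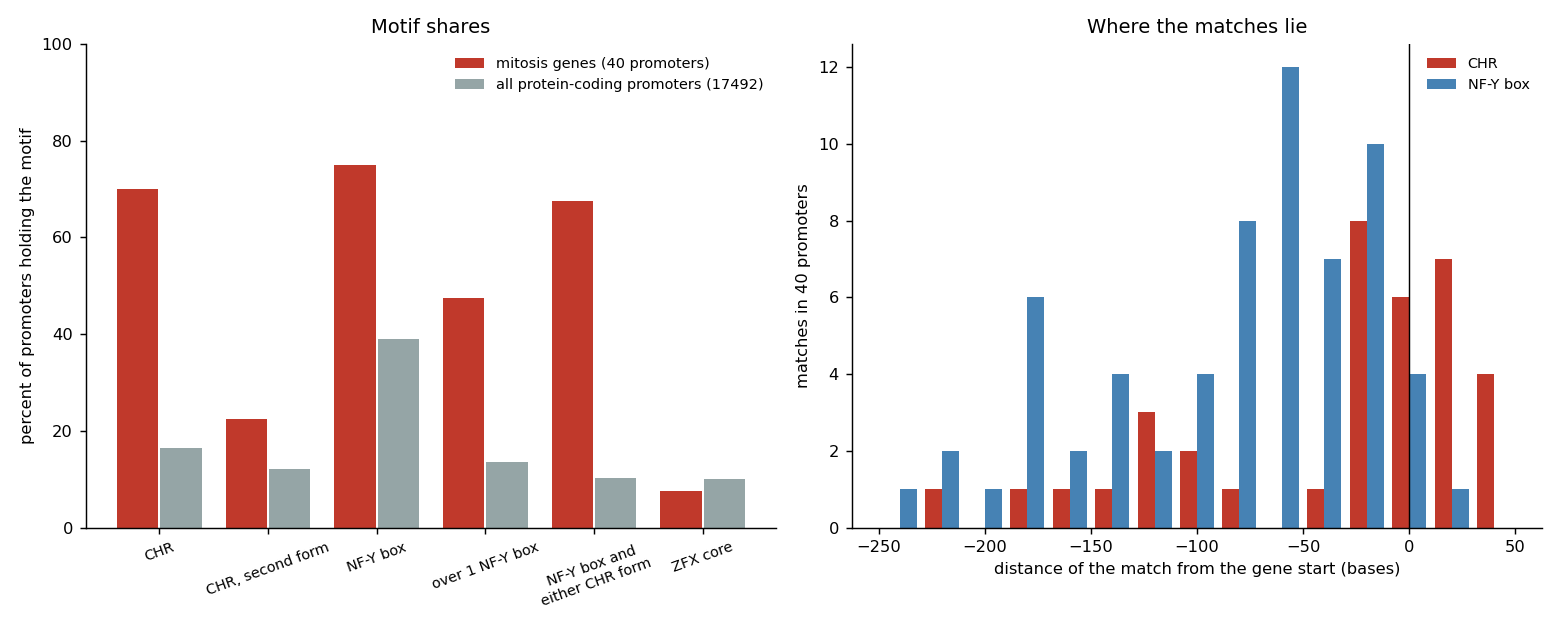
Left, the percentage of promoters that hold each motif, for the 40 mitosis gene promoters (red) and 17492 protein-coding promoters (grey): the CHR is TTTGAA, its other form TTTAAA, the NF-Y box CCAAT and the ZFX core AGGCCT. Right, the distance in bases from the gene start of each TTTGAA and CCAAT match in the 40 promoters, with a median of -16 for TTTGAA and -66 for CCAAT.

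Array quality and cell identity differed in places between the groups compared. Arrays of a group correlated at 0.980 to 0.987 on the log2 scale, and none stood apart. A probe set annotated to Zfx and Zfa-ps measured 1.32 and 0.878 in Zfx-null ESC, against 285 and 298 in Zfx-flox ESC. In HSC it was dim in both groups, at 1.34 and 0.305 in Zfx-cko and 7.22 and 0.971 in Zfx-flox, so it does not check the HSC labels. The 4 probe sets annotated to Zfx alone were higher in Zfx-null than in Zfx-flox ESC on all arrays, with means of 230 and 69.3, 512 and 290, 568 and 170, and 296 and 88.5. They go against the label, unlike the probe set shared with Zfa-ps, and their place relative to the deleted part is not known here. The same 4 probe sets had HSC means of 91.0 in Zfx-cko and 135 in Zfx-flox, 1200 and 724, 33.2 and 31.6, and 21.9 and 7.14. They differed in direction there and do not check the HSC labels either. In ESC the summed level of 8 pluripotency markers was 19171 to 20010 in Zfx-null and 31030 to 31884 in Zfx-flox, with 5 of 8 lower and 0 higher. The summed level of 8 fibroblast markers was 20557 to 21787 in Zfx-null and 11512 to 11872 in Zfx-flox, with 4 higher and 0 lower. In HSC all 6 stem and progenitor markers measured were higher, with sums of 13135 to 13530 in Zfx-cko and 4185 to 4512 in Zfx-flox. Fibroblast markers also moved in HSC, with sums of 1129 to 1191 in Zfx-cko and 430 to 445 in Zfx-flox, 2 higher (Pdgfrb and Thy1), 0 lower and Col3a1 at background. Pluripotency markers summed to 462 to 481 in Zfx-cko and 254 to 277 in Zfx-flox HSC, with 1 higher and 0 lower. The higher one was Klf4, at 281 and 308 in Zfx-cko and 59.9 and 78.2 in Zfx-flox HSC. Pou5f1, Nanog, Sox2 and Tdgf1 were at background in both HSC groups. The 7 granulocyte and monocyte markers summed to 17673 to 18185 in Zfx-cko and 13563 to 13633 in Zfx-flox, with 2 higher, 0 lower and Itgam at background. Of 6 erythroid and megakaryocyte markers 3 were lower and 2 higher, with sums of 4697 to 4749 in Zfx-cko and 5068 to 5117 in Zfx-flox; the erythroid factor Klf1 averaged 324 in Zfx-cko and 1924 in Zfx-flox. The 6 B, T and NK cell markers summed to 152 to 214 in Zfx-cko and 159 to 222 in Zfx-flox, with Cd3e and Cd4 at background. The log2 ratio of the 5′ to the 3′ Gapdh probe set, a sign of RNA length, was 0.413 and 0.377 in Zfx-null ESC and 0.437 and 0.378 in Zfx-flox ESC. It was -4.68 and -4.39 in Zfx-cko HSC and -4.18 and -4.25 in Zfx-flox HSC, lower on both Zfx-cko arrays. The same ratio for Actb overlapped in HSC, at -3.60 and -3.44 in Zfx-cko and -3.46 and -3.30 in Zfx-flox. In ESC the Actb ratio was -0.315 and -0.285 in Zfx-null and -0.464 and -0.322 in Zfx-flox.

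In ESC, mitosis genes of every role were lower without Zfx. Of the 48 members, 34 were lower and 0 higher in Zfx-null than in Zfx-flox ESC (limma, Benjamini-Hochberg adjusted p under 0.05), where 14.9% of all 12676 genes tested were lower and 15.7% higher. The fitted change was negative in 45 of 48 members, and the 3 positive ones, Foxm1, Ndc80 and Spc25, did not pass the test. The median log2 change of the members was -0.39, against -0.03 for all genes tested, and the median member had a mean intensity 23.9% lower in Zfx-null than in Zfx-flox ESC. The median member level was 854 and 856 on the Zfx-null arrays and 1168 and 1147 on the Zfx-flox arrays. Fewer dividing cells in a culture and less of these RNAs per dividing cell cannot be told apart in bulk RNA. The pluripotency and fibroblast marker levels given above moved with the same contrast, and their part in the result was not tested.

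In HSC some members were lower and fewer were higher. There 14 members were lower in Zfx-cko than in Zfx-flox HSC, 7 were higher and 27 did not pass. Of all 12533 genes tested, 19.8% were lower and 22.6% higher. The share of members called lower was above that of all genes, and the share called higher was below it. The median log2 change was -0.13, against 0.03 for all genes. The median member level was 971 and 1059 on the Zfx-cko arrays and 1148 and 1174 on the Zfx-flox arrays. Where each array was centred on its own median, 16 members were lower and 2 higher, Cdc25b and Nusap1, so the split depends on the scaling; the direction of no single member's call turned under any of the 3 scalings tried. Without HSC Zfx-flox replicate 2 only 9 members were lower, without HSC Zfx-flox replicate 1 only 3 were higher, and without HSC Zfx-cko replicate 1 only 4 were higher. The marker levels and the Gapdh ratio given above differed between the HSC groups, and their part in these counts was not tested.

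**Figure D2:**
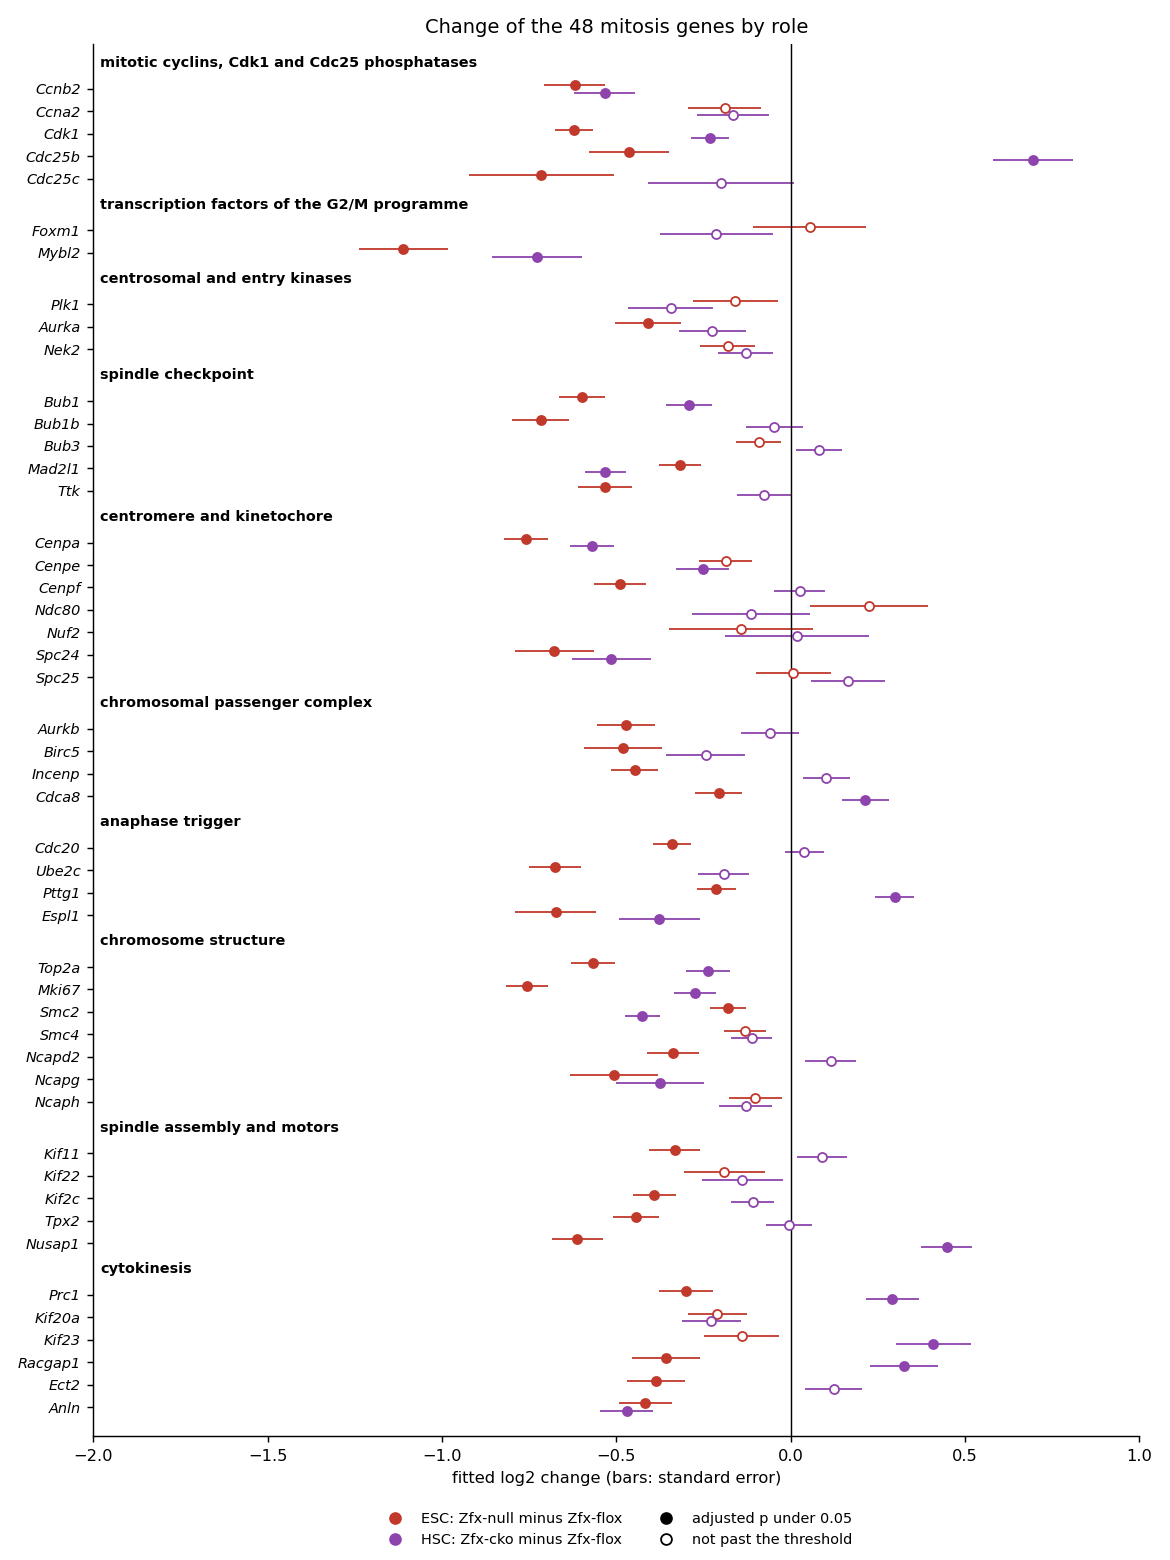
Fitted log2 change of the 48 mitosis genes, by role, in ESC (red, Zfx-null minus Zfx-flox) and in HSC (purple, Zfx-cko minus Zfx-flox), with standard errors as bars; filled points passed an adjusted p of 0.05 and open points did not. In ESC 34 genes are filled, all left of 0, and in HSC 14 are filled left of 0 and 7 right of it.

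The cyclins, Cdk1 and the Cdc25 phosphatases, which bring cells into mitosis, were lower in ESC in 4 of 5 members and split in HSC. Ccnb2, a B-type cyclin, measured 1172 and 1059 in Zfx-null ESC, against 1661 and 1778 in Zfx-flox ESC, a log2 change of -0.62 (adjusted p = 0.0013). Its HSC values were 989 and 1156 in Zfx-cko, against 1547 and 1562 in Zfx-flox, a log2 change of -0.53 (adjusted p = 0.00144). Both deleted arrays lay below both control arrays in each cell type, and the 2 changes did not differ past the threshold (difference 0.09, adjusted p = 0.639). Cdk1, the kinase that drives entry, averaged 1475 ± 1.55 in Zfx-null and 2277 ± 50.2 in Zfx-flox ESC (SD, n = 2 each), 35.2% lower, and 2392 ± 46.4 in Zfx-cko and 2813 ± 80.8 in Zfx-flox HSC, 15.0% lower. The fall of Cdk1 was smaller in HSC (difference 0.39, adjusted p = 0.00549). Ccna2, cyclin A, did not pass in either cell type on the chosen probe set, with log2 changes of -0.19 in ESC and -0.17 in HSC. Its other probe set measured 603 and 574 in Zfx-cko HSC, against 1003 and 1035 in Zfx-flox HSC (log2 change -0.78), and had a log2 change of -0.32 in ESC. Averaged over both, Ccna2 passed in both cell types, with -0.26 in ESC (adjusted p = 0.0256) and -0.47 in HSC (adjusted p = 0.00109).

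Cdc25b, a phosphatase that activates Cdk1, moved in opposite directions. It measured 181 and 186 in Zfx-null ESC, against 240 and 280 in Zfx-flox ESC, a log2 change of -0.46 (adjusted p = 0.0164). The HSC arrays read 288 and 273 in Zfx-cko, against 159 and 177 in Zfx-flox, a log2 change of 0.69 (adjusted p = 0.00141), the largest rise of the set. The groups did not overlap in either cell type, and the difference of 1.16 between the 2 effects was the largest among members (adjusted p = 0.00102). The ESC call, though, was lost without ESC Zfx-flox replicate 2 and without either Zfx-null array, where its adjusted p reached 0.0904. Cdc25c, a related phosphatase, measured 137 and 96.8 in Zfx-null ESC, against 238 and 165 in Zfx-flox ESC, with a log2 change of -0.72 (adjusted p = 0.0322). Its arrays were spread widely within each ESC group, and its call was lost in 8 of 21 alternatives, among them without ESC Zfx-flox replicate 1 (adjusted p = 0.186) and without ESC Zfx-null replicate 2 (adjusted p = 0.169). Cdc25c in HSC measured 111 and 131 in Zfx-cko and 135 and 146 in Zfx-flox, a log2 change of -0.20 (adjusted p = 0.493).

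Of the transcription factors of the late cell cycle programme, Mybl2 fell and Foxm1 did not pass the test. Mybl2, or B-Myb, measured 627 and 778 in Zfx-null ESC, against 1441 and 1614 in Zfx-flox ESC. This was the largest change of the set in ESC, with a log2 change of -1.11 (SE 0.128, adjusted p = 0.000501) and a mean 54.0% lower in Zfx-null. Mybl2 in HSC measured 62.6 and 58.9 in Zfx-cko, against 119 and 102 in Zfx-flox, a log2 change of -0.73 (adjusted p = 0.00205) and a mean 44.8% lower. The arrays of the 2 groups did not overlap in either cell type. Its call held under all 21 alternatives in both. Foxm1, which takes over from B-Myb at the same promoters, averaged 267 ± 54.9 in Zfx-null and 255 ± 18.5 in Zfx-flox ESC, and 203 ± 36.6 in Zfx-cko and 236 ± 10.6 in Zfx-flox HSC (SD, n = 2 each), with overlapping arrays in both cell types.

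**Figure D3:**
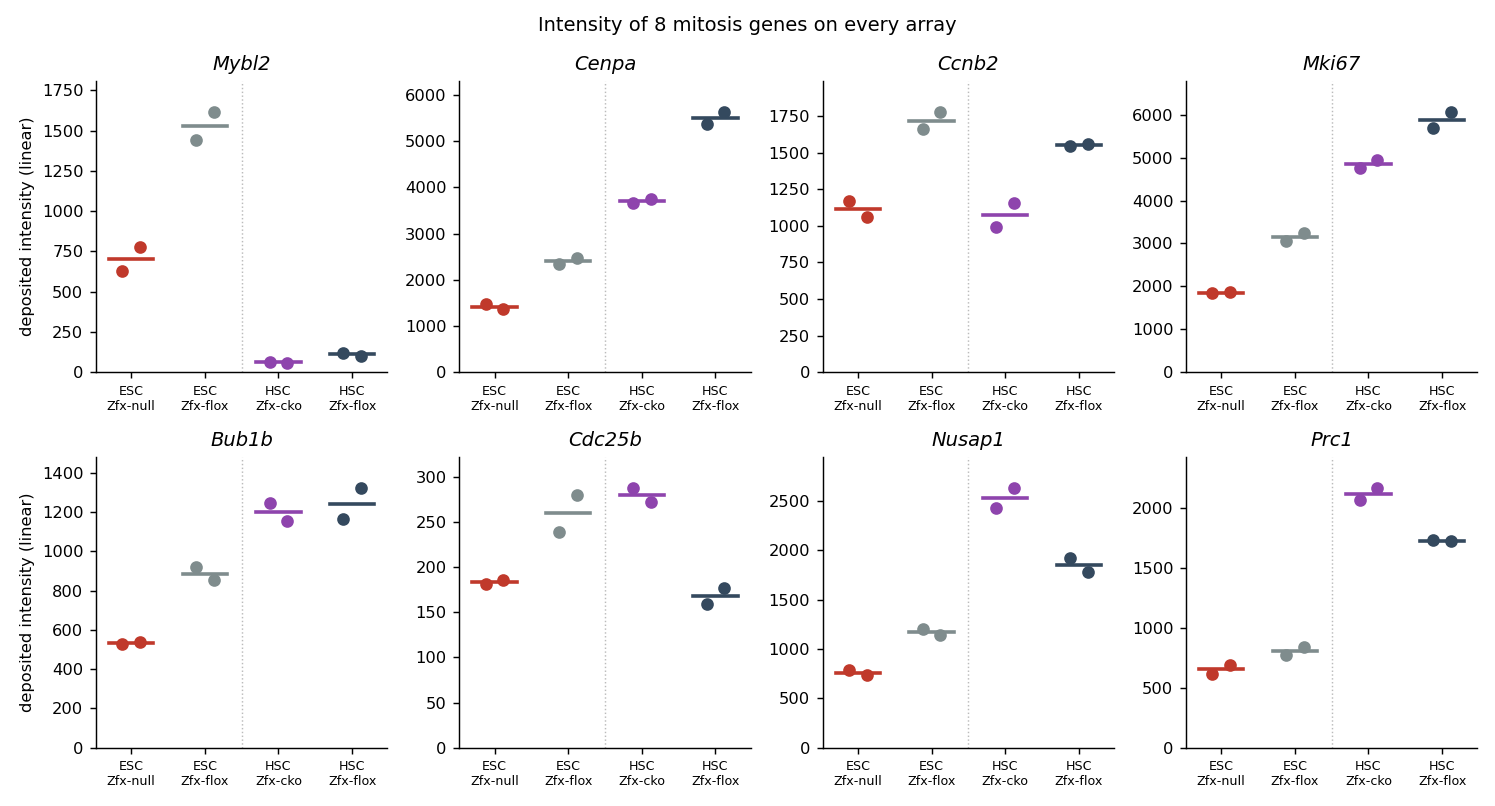
Deposited intensity (linear, from 0) of 8 mitosis genes on each of the 8 arrays, with Zfx-null left of Zfx-flox for ESC and Zfx-cko left of Zfx-flox for HSC; points are arrays and lines are group means. Mybl2, Cenpa, Ccnb2 and Mki67 lie lower after loss of Zfx in both cell types, Bub1b in ESC, and Cdc25b, Nusap1 and Prc1 lie lower in Zfx-null ESC and higher in Zfx-cko HSC.

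Of the 3 kinases that act at centrosomes and at entry, 1 passed the test in ESC and 0 in HSC. Aurka, the kinase that matures the centrosomes, measured 826 and 863 in Zfx-null ESC, against 1070 and 1186 in Zfx-flox ESC, a log2 change of -0.41 (adjusted p = 0.0126), with the groups apart. This call was lost without ESC Zfx-flox replicate 2 and without ESC Zfx-null replicate 1, with an adjusted p of up to 0.0774. In HSC Aurka measured 265 and 281 in Zfx-cko and 347 and 297 in Zfx-flox, a change that did not pass (adjusted p = 0.092). Plk1, the kinase with roles from entry to cytokinesis, measured 424 and 408 in Zfx-cko HSC, against 458 and 618 in Zfx-flox HSC, with a log2 change of -0.34 and an adjusted p of 0.0515. Most of that difference came from 1 high Zfx-flox array. In ESC Plk1 measured 851 and 867 in Zfx-null and 949 and 972 in Zfx-flox, a log2 change of -0.16 (adjusted p = 0.374). Nek2, which separates the centrosomes, had log2 changes of -0.18 in ESC and -0.13 in HSC, neither past the threshold.

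Of the spindle checkpoint genes, whose proteins delay anaphase at unattached kinetochores, 4 of 5 were lower in ESC and 2 of 5 in HSC. Bub1b, which encodes the checkpoint protein BubR1, measured 529 and 538 in Zfx-null ESC, against 919 and 853 in Zfx-flox ESC, a log2 change of -0.72 (adjusted p = 0.000487). Bub1b in HSC measured 1246 and 1157 in Zfx-cko and 1164 and 1323 in Zfx-flox. Those HSC arrays overlapped (log2 change -0.05, adjusted p = 0.693), and the ESC and HSC effects differed by 0.67 (adjusted p = 0.00288). Its probe set can share sequence with other transcripts, and its ESC call was lost, with an adjusted p of up to 0.0702, when such probe sets were left out. Mad2l1, an inhibitor of Cdc20, measured 4407 and 4766 in Zfx-cko HSC, against 6588 and 6676 in Zfx-flox HSC, a log2 change of -0.53 (adjusted p = 0.00017). In ESC it measured 1483 and 1551 in Zfx-null, against 1889 and 1898 in Zfx-flox, a log2 change of -0.32 (adjusted p = 0.00461). The groups were apart in both cell types. Bub1, a kinase of the outer kinetochore, was 34.2% lower in ESC and 18.6% lower in HSC, but averaged over its probe sets it did not pass in HSC (adjusted p = 0.2). Ttk, the kinase that starts checkpoint signalling, was 31.4% lower in ESC and did not pass in HSC (log2 change -0.08). Bub3, a partner of Bub1 and BubR1, passed in neither, with log2 changes of -0.09 in ESC and 0.08 in HSC, but averaged over its probe sets it was lower in ESC (-0.45, adjusted p = 0.0128).

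Among the 7 centromere and kinetochore genes 3 were lower in each cell type, and Cenpa and Spc24 were lower in both. Cenpa, the histone H3 variant that marks centromeres, measured 1475 and 1363 in Zfx-null ESC, against 2350 and 2471 in Zfx-flox ESC, a log2 change of -0.76 (SE 0.0624, adjusted p = 0.000105). Cenpa in HSC measured 3653 and 3754 in Zfx-cko, against 5384 and 5631 in Zfx-flox, a log2 change of -0.57 (adjusted p = 0.000156). The groups were well apart in both cell types, and the 2 effects did not differ past the threshold (adjusted p = 0.135). Averaged over its probe sets, Cenpa had a log2 change of -0.28 in HSC and did not pass (adjusted p = 0.217). Spc24 and Spc25 encode partners in the Ndc80 complex, which grips microtubules, yet Spc24 had log2 changes of -0.68 in ESC and -0.51 in HSC (adjusted p = 0.00278 and 0.00646), while Spc25 had 0.01 and 0.16 and passed in neither; averaged over its probe sets Spc25 was higher in HSC (0.34, adjusted p = 0.0415). Ndc80 and Nuf2, the other subunits, did not pass either, and the arrays of Nuf2 overlapped in both cell types, at 626 and 360 in Zfx-null and 533 and 519 in Zfx-flox ESC. Cenpf, a large kinetochore protein, was 29.1% lower in ESC and had a log2 change of 0.03 in HSC. Cenpe, a kinetochore motor, was lower in HSC (log2 change -0.25, adjusted p = 0.0263) and did not pass in ESC (-0.19, adjusted p = 0.101); its HSC call was lost when any of 3 HSC arrays was left out.

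The chromosomal passenger complex, which corrects faulty attachments and later directs cytokinesis, was lower in ESC in all 4 members and in none in HSC. Birc5, or survivin, measured 1985 and 1673 in Zfx-null ESC, against 2616 and 2486 in Zfx-flox ESC, a log2 change of -0.48 (adjusted p = 0.0129). Birc5 in HSC measured 698 and 849 in Zfx-cko and 874 and 957 in Zfx-flox, a log2 change of -0.24 (adjusted p = 0.117). Incenp, the scaffold of the complex, measured 2092 and 2200 in Zfx-null ESC, against 2787 and 3080 in Zfx-flox ESC, a log2 change of -0.45 (adjusted p = 0.00179). In HSC Incenp measured 7695 and 7230 in Zfx-cko and 6818 and 7081 in Zfx-flox, a log2 change of 0.10 (adjusted p = 0.272). The effects on Incenp differed by 0.55 (adjusted p = 0.00296). Its probe set may match several transcripts. Without such probe sets the difference was 0.18 and did not pass (adjusted p = 0.544), with a log2 change of -0.27 in HSC. Further tested probe sets of Incenp outside that class had HSC log2 changes of 0.69 and -0.20, and ESC changes of -0.47 and -0.52. Aurkb, the kinase of the complex, was 29.0% lower in ESC, with a log2 change of -0.06 in HSC. All its probe sets may match several transcripts, so its calls could not be checked without such probe sets. Cdca8, or borealin, was 13.4% lower in ESC (adjusted p = 0.0486) and higher in HSC (log2 change 0.21, adjusted p = 0.0319). Neither of its calls was firm: the ESC call was lost in 15 of 21 alternatives, and in HSC the change turned to -0.09 (adjusted p = 0.567) when probe sets that may match several transcripts were left out. Birc5 lost its ESC call without ESC Zfx-flox replicate 1 or ESC Zfx-null replicate 2, with an adjusted p of up to 0.079.

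The 4 genes of the anaphase trigger were also all lower in ESC. Ube2c, which encodes the ubiquitin-conjugating enzyme of the anaphase-promoting complex, measured 2053 and 1871 in Zfx-null ESC, against 3256 and 3028 in Zfx-flox ESC, a log2 change of -0.68 (adjusted p = 0.000378). In HSC it measured 1070 and 1164 in Zfx-cko and 1295 and 1259 in Zfx-flox, a log2 change of -0.19 that did not pass (adjusted p = 0.0666), and the effects differed by 0.48 (adjusted p = 0.00794). Espl1, or separase, the protease that cuts cohesin, measured 556 and 597 in Zfx-null ESC, against 898 and 957 in Zfx-flox ESC, a log2 change of -0.67 (adjusted p = 0.00323). Its HSC values were 354 and 305 in Zfx-cko, against 387 and 479 in Zfx-flox, a log2 change of -0.38 (adjusted p = 0.03). That HSC call was lost without HSC Zfx-cko replicate 2 and without HSC Zfx-flox replicate 2, with an adjusted p of up to 0.191 over all alternatives. Pttg1, or securin, the inhibitor of separase, was higher in Zfx-cko HSC, with a ratio of means of 1.23 (log2 change 0.30, adjusted p = 0.00276), and 13.8% lower in Zfx-null ESC. Its probe set may match several transcripts. Without such probe sets the HSC change was 0.10 (adjusted p = 0.445), and neither the ESC call nor the difference passed. Another probe set of Pttg1, also outside that class, measured 312 and 257 in Zfx-cko HSC, against 137 and 132 in Zfx-flox HSC. Its log2 changes were 1.00 in HSC and -0.39 in ESC. The ESC call of Pttg1 was lost in 6 of 21 alternatives, among them without ESC Zfx-flox replicate 2 (adjusted p = 0.0921) and without ESC Zfx-null replicate 1 (adjusted p = 0.0914). Cdc20, which activates the anaphase-promoting complex, was 21.0% lower in ESC, with a log2 change of 0.04 in HSC.

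Of the 7 genes of chromosome structure, 5 were lower in ESC and 4 in HSC, and 0 were higher in either. Mki67, the Ki67 antigen that coats mitotic chromosomes, measured 1839 and 1866 in Zfx-null ESC, against 3047 and 3236 in Zfx-flox ESC, a log2 change of -0.76 with the smallest adjusted p of the set (9.19e-05). In HSC it measured 4761 and 4958 in Zfx-cko, against 5697 and 6064 in Zfx-flox, a log2 change of -0.27 (adjusted p = 0.00626). The groups did not overlap, and the fall was smaller in HSC (difference 0.48, adjusted p = 0.003). Smc2, the core ATPase of condensin, measured 2698 and 2725 in Zfx-cko HSC, against 3655 and 3643 in Zfx-flox HSC, a log2 change of -0.43 (adjusted p = 0.000236). In ESC it measured 1858 and 1864 in Zfx-null, against 2120 and 2099 in Zfx-flox, a log2 change of -0.18 (adjusted p = 0.0276). It was the only member with a larger fall in HSC past the threshold (difference -0.25, adjusted p = 0.0277), and that difference was 0.14 and did not pass when all its probe sets were averaged. That average did not pass in ESC (-0.32, adjusted p = 0.0924) or in HSC (-0.18, adjusted p = 0.307) either. Smc4, its partner, passed in neither cell type (log2 changes -0.13 and -0.11 in ESC and HSC), but averaged over its probe sets it was lower in ESC (-0.29, adjusted p = 0.0204). Top2a, the topoisomerase that untangles sister chromosomes, was 32.7% lower in ESC and 15.0% lower in HSC, where averaged over its probe sets its change was -0.03 and did not pass (adjusted p = 0.787). Of the further condensin subunits, Ncapg was lower in both (log2 changes -0.51 and -0.38), Ncapd2 in ESC (-0.34), and Ncaph in neither. Averaged over probe sets, Ncapg did not pass in HSC (adjusted p = 0.48), while in HSC Ncapd2 was higher (0.34, adjusted p = 0.00182) and Ncaph lower (-0.25, adjusted p = 0.00734). The HSC calls of Top2a, Mki67 and Ncapg, and the ESC calls of Smc2, Ncapd2 and Ncapg, were each lost without at least 1 array of that cell type.

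Spindle assembly factors and motors were lower in 4 of 5 members in ESC and not lower in any in HSC. Nusap1, which bundles spindle microtubules at chromosomes, measured 786 and 736 in Zfx-null ESC, against 1200 and 1140 in Zfx-flox ESC, a log2 change of -0.61 (SE 0.073, adjusted p = 0.000582). In HSC it measured 2425 and 2630 in Zfx-cko, against 1923 and 1776 in Zfx-flox, a log2 change of 0.45 (adjusted p = 0.00136). The groups were apart in both cell types and in opposite order, and the effects differed by 1.06 (adjusted p = 0.000182). All of its calls held under every alternative run, and its other probe set had log2 changes of -0.94 in ESC and 0.54 in HSC. Tpx2, the activator of Aurora A at the spindle, was 26.8% lower in ESC and did not pass in HSC, at 643 and 671 in Zfx-cko and 681 and 639 in Zfx-flox. The other probe sets of Tpx2 were all positive in HSC, with log2 changes of 0.33, 0.18 and 0.10. Kif11, the motor that pushes the poles apart, was 21.2% lower in ESC, and Kif2c, which removes tubulin from microtubule ends, 24.0% lower; neither passed in HSC. Without probe sets that may match several transcripts, Kif2c had a log2 change of -0.20 in ESC and did not pass (adjusted p = 0.607). Kif22, which moves chromosome arms, passed in neither on such a probe set, with a log2 change of -0.19 in ESC. On a probe set of Kif22 outside that class the ESC change was -0.59 and passed (adjusted p = 0.00823), and its remaining probe set had -0.44.

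In cytokinesis 4 of 6 genes were lower in ESC, and in HSC 1 was lower and 3 higher. Anln, or anillin, which links the contractile ring to the membrane, measured 2279 and 2242 in Zfx-null ESC, against 3048 and 2999 in Zfx-flox ESC, a log2 change of -0.42 (adjusted p = 0.00419). In HSC it measured 656 and 760 in Zfx-cko, against 1006 and 961 in Zfx-flox, a log2 change of -0.47 (adjusted p = 0.0013). On this probe set it was lower on both deleted arrays in each cell type. The other probe set of Anln had a log2 change of 0.19 in HSC, and averaged over both Anln had -0.14 there and did not pass (adjusted p = 0.176). Prc1, which crosslinks the central spindle, measured 613 and 695 in Zfx-null ESC, against 776 and 839 in Zfx-flox ESC, a log2 change of -0.30 (adjusted p = 0.0193). In HSC Prc1 measured 2070 and 2170 in Zfx-cko, against 1733 and 1724 in Zfx-flox, a log2 change of 0.29 (adjusted p = 0.0153). The effects on Prc1 differed by 0.59 (adjusted p = 0.00376), a difference that held under every alternative run. Its calls within each cell type did not: without probe sets that may match several transcripts the adjusted p was 0.129 in ESC and 0.101 in HSC, and each was lost without at least 1 array. Racgap1, a subunit of centralspindlin, measured 456 and 444 in Zfx-null ESC, against 603 and 560 in Zfx-flox ESC, a log2 change of -0.36 (adjusted p = 0.0251). In HSC Racgap1 measured 262 and 235 in Zfx-cko, against 184 and 207 in Zfx-flox, a log2 change of 0.32 (adjusted p = 0.0272). The groups did not overlap, but the probe set of Racgap1 with the highest mean on the linear scale gave -0.06 in HSC (adjusted p = 0.685). Averaged over its probe sets, Racgap1 passed in neither cell type, with an adjusted p of 0.0852 in ESC and 0.551 in HSC. That average included a probe set at background, at most 0.90 on every array. The brighter probe sets of Racgap1 had ESC log2 changes of -0.36 and -0.50. Kif23, the motor of centralspindlin, was higher in Zfx-cko HSC, with a ratio of means of 1.35 (log2 change 0.41, adjusted p = 0.0153), and did not pass in ESC. Averaged over its probe sets its change in HSC was -0.09 and did not pass. The other probe sets of Kif23 were too dim to be tested in HSC. Ect2, which activates the ring through RhoA, was 23.9% lower in ESC and did not pass in HSC (log2 change 0.12), and Kif20a passed in neither (log2 changes -0.21 and -0.23).

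The effects of the 2 deletions were then compared gene by gene. The HSC effect lay above the ESC effect in 23 of 48 members and below it in 1, Smc2, where 17.6% of 11175 genes tested were above and 17.7% below. The median difference of the members was 0.30, against 0.03 for all genes. The 13 members lower in both cell types were Ccnb2, Cdk1, Mybl2, Bub1, Mad2l1, Cenpa, Spc24, Espl1, Top2a, Mki67, Smc2, Ncapg and Anln; for 8 of them the difference did not pass. The 6 lower in ESC and higher in HSC were Cdc25b, Cdca8, Pttg1, Nusap1, Prc1 and Racgap1, and the difference passed in all 6. Another 15 were lower in ESC and did not pass in HSC, and for 12 of these the difference passed. The share of all genes with each pair of calls is not given here, so these counts are not set against it. Without the variance trend only 5 members had a higher HSC effect, and with arrays centred on their medians only 6. That centring also took the median difference of all genes to -0.09 and that of the members to 0.18.

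**Figure D4:**
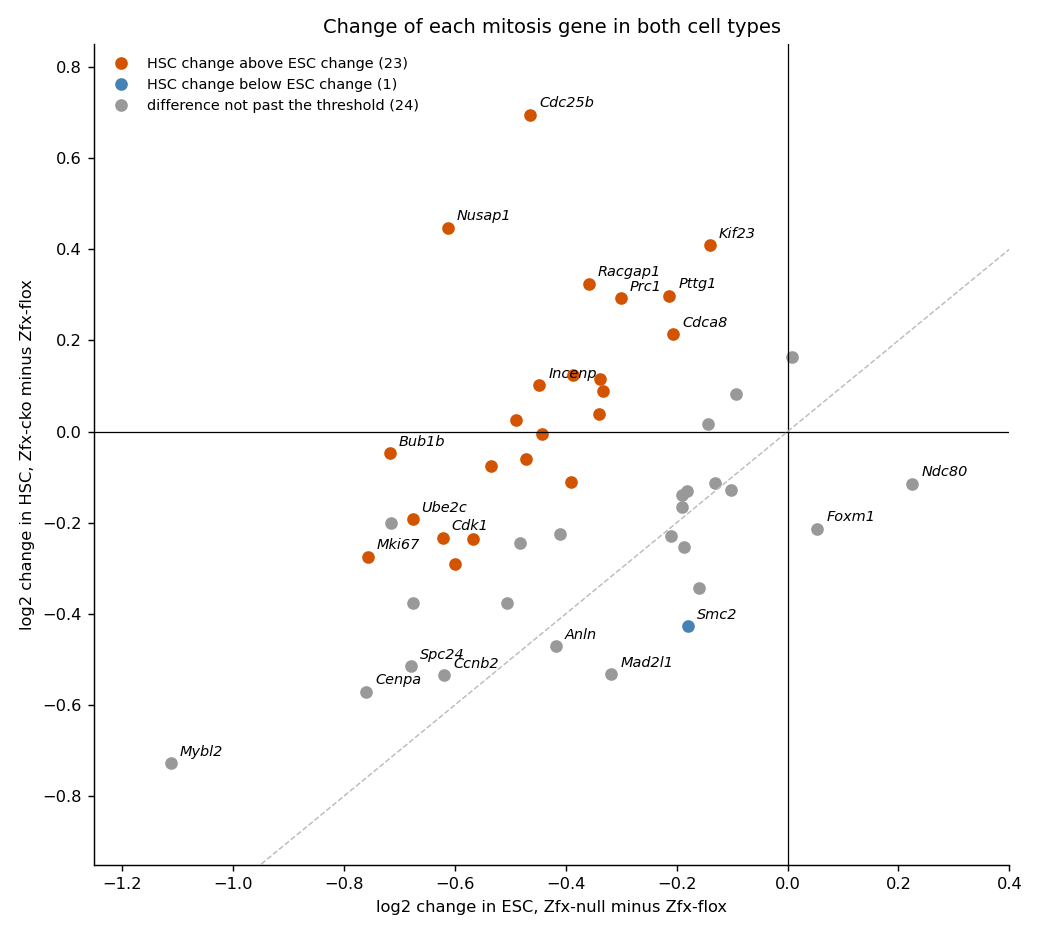
Log2 change of each of the 48 mitosis genes in ESC (horizontal, Zfx-null minus Zfx-flox) against HSC (vertical, Zfx-cko minus Zfx-flox); the dashed line marks equal changes. The 23 orange genes have an HSC effect above the ESC effect past the threshold, Smc2 in blue has the opposite, and 24 grey genes do not pass; Mybl2 lies lowest in both and Cdc25b and Nusap1 lie farthest above the line.

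The members' calls were not equally stable. Of the 34 lower in ESC, 16 kept their call under all alternatives run (Aurkb, Bub1, Ccnb2, Cdk1, Cenpa, Cenpf, Espl1, Incenp, Mki67, Mybl2, Nusap1, Spc24, Top2a, Tpx2, Ttk and Ube2c), 13 lost it without at least 1 array, and 5 lost it under other settings alone. Aurkb has only probe sets that may match several transcripts, so the alternative without such probe sets did not apply to it. Of the 14 lower in HSC, 4 kept their call (Ccnb2, Mad2l1, Mybl2 and Spc24) and 6 lost it without at least 1 array. Of the 7 higher in HSC, Cdc25b and Nusap1 kept it, and 4 lost it without at least 1 array, namely Cdca8, Kif23, Prc1 and Racgap1. Of the 23 higher differences, those of Cdc25b, Nusap1 and Prc1 were kept. Among the members named here as keeping a call, Ccnb2, Cdc25b, Cdk1, Espl1, Mad2l1, Mki67, Spc24 and Ube2c had 1 probe set each. The alternatives that change the probe set could therefore not test their calls. Probe sets of a gene agreed in sign more often in ESC: the 36 other probe sets tested of members lower in ESC were all negative there, while in HSC 6 of 10 other probe sets of the lower members and 4 of 7 of the higher members had the sign of the chosen probe set. Over all 100 member probe sets tested, 96 were negative in ESC and 61 in HSC.

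Changes were also set beside the motifs, with no test. The median log2 change in ESC was -0.39 for the 28 members with TTTGAA and -0.32 for the 11 without it, and in HSC it was -0.11 and -0.13. Of the 28, 22 were lower in ESC, 9 lower in HSC and 4 higher in HSC; of the 11, 7 were lower in ESC, 4 lower in HSC and 3 higher in HSC. With more than 1 CCAAT box the median in ESC was -0.45 (18 members) and otherwise -0.33 (21 members), and in HSC it was -0.13 and -0.11. With any CCAAT box the ESC median was -0.39 (29 members), and without it -0.35 (10 members). A CCAAT box together with TTTGAA or TTTAAA went the other way in ESC, at -0.37 (26 members) against -0.39 without the pair (13 members). Mybl2 and Nusap1, whose windows printed above hold neither motif, had 2 of the larger changes of the set, and were printed for their changes. The other windows without either motif were those of Mad2l1, Pttg1, Nuf2 and Ncaph. Their log2 changes in ESC were smaller, at -0.32, -0.21, -0.14 and -0.10. Among the 3 promoters with AGGCCT the median change in ESC was -0.30, against -0.39 in the 36 without it.

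Further genes of mitosis were taken from 7 lists that do not overlap the members, 125 genes in all. These lists, too, were chosen with earlier results of these data known. Of 118 tested in ESC 49 were lower and 8 higher, with a median log2 change of -0.26. Of 117 tested in HSC 30 were lower and 13 higher, with a median of -0.07. Over all genes tested, 14.9% were lower and 15.7% higher in ESC, and 19.8% lower and 22.6% higher in HSC. Counts of single lists, here and below, are to be read beside these shares, and several lie near them. Among cohesin, its loaders and its protectors 8 of 16 were lower and 1 higher in ESC, and 6 lower and 0 higher in HSC. Sgo1, shugoshin, which protects cohesin at centromeres, averaged 446 ± 14.9 in Zfx-null and 767 ± 45.5 in Zfx-flox ESC (log2 change -0.76, adjusted p = 0.0002). Nipbl, which loads cohesin, was lower in both cell types, with log2 changes of -0.55 in ESC and -0.42 in HSC. Esco2, an acetyltransferase that makes cohesion stable, averaged 357 ± 13.0 in Zfx-cko and 535 ± 42.5 in Zfx-flox HSC (log2 change -0.56, adjusted p = 0.00115).

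The anaphase-promoting complex and its inhibitors had 5 of 17 genes lower and 2 higher in ESC, and 5 lower and 0 higher in HSC. In ESC Cdc16, a subunit, was higher (log2 change 0.63, adjusted p = 0.000378) and Fbxo5, the inhibitor Emi1, lower (-0.51, adjusted p = 0.00216). In HSC the subunits Anapc1, Cdc23 and Anapc4 were lower, with log2 changes of -0.57, -0.51 and -0.50. Of the further kinetochore and checkpoint genes, 11 of 31 were lower and 2 higher in ESC, and 11 of 29 lower and 2 higher in HSC. Cenpw, a centromere protein, averaged 484 ± 79.0 in Zfx-null and 881 ± 9.03 in Zfx-flox ESC, and 324 ± 9.12 in Zfx-cko and 597 ± 21.9 in Zfx-flox HSC (SD, n = 2 each), a log2 change of -0.85 in both. Zwilch, which recruits dynein to kinetochores, was also lower in both, with log2 changes of -0.75 in ESC and -0.69 in HSC (adjusted p = 0.000115 and 5.99e-05).

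Further spindle motors and microtubule proteins were lower in 10 of 22 and higher in 2 in ESC. In HSC 2 of 23 were lower and 7 higher. The HSC effect was above the ESC effect in 13 of 22, against 17.6% of all genes tested. Aspm, a spindle pole protein, had the largest fall in ESC among these lists, averaging 754 ± 15.7 in Zfx-null and 1558 ± 66.7 in Zfx-flox (log2 change -1.03, adjusted p = 3.33e-05), and did not pass in HSC (-0.16). Kifc1, a motor that focuses poles, was lower in ESC (log2 change -0.89). Cep55, which recruits the abscission machinery to the midbody, averaged 1680 ± 67.1 in Zfx-cko and 814 ± 6.19 in Zfx-flox HSC (log2 change 1.03, adjusted p = 2.38e-05), and 878 ± 82.9 in Zfx-null and 1367 ± 63.0 in Zfx-flox ESC (-0.63, adjusted p = 0.0007). Arhgef2, a microtubule-bound activator of RhoA, was higher in both, with log2 changes of 0.69 in ESC and 1.38 in HSC. Entry and exit regulators had 10 of 17 lower and 0 higher in ESC, and 2 lower and 2 higher in HSC; Ccnf, cyclin F, had log2 changes of -0.84 in ESC and -0.45 in HSC, and Pbk, a mitotic kinase, rose in HSC (0.53, adjusted p = 0.000218) and fell in ESC (-0.31, adjusted p = 0.00686). Centriole and centrosome genes had 3 of 11 lower and 1 higher in ESC and 2 lower and 2 higher in HSC, with the centriole protein Cenpj higher in both (0.45 in ESC and 0.56 in HSC). Of 4 other condensin and chromosome axis genes 2 were lower in each cell type, with Top2b, the topoisomerase of non-dividing cells too, at -0.96 in HSC.

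Genes of DNA replication, which act in the preceding phase of the cycle, were lower in both cell types. Of 35 tested, 22 were lower and 0 higher in ESC, with a median log2 change of -0.35, and 23 were lower and 1 higher in HSC, with a median of -0.41. Ccne1, cyclin E, averaged 710 ± 1.81 in Zfx-cko and 4258 ± 415 in Zfx-flox HSC (log2 change -2.56, adjusted p = 9.57e-06), and 1072 ± 238 in Zfx-null and 1991 ± 377 in Zfx-flox ESC (log2 change -0.89, adjusted p = 0.00428). Orc1 and Cdc6, which license origins, had log2 changes of -1.08 and -0.95 in HSC. In ESC the medians of the mitosis and the replication genes were close, at -0.39 and -0.35, while in HSC they were -0.13 and -0.41; the lists were not tested against each other.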

How the data were processed

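Levels are the authors' deposited intensity values of 8 Affymetrix Mouse Genome 430 2.0 arrays, for which the submitters' processing notes name GCOS 1.4. The sources used here do not give how probes were summarised. The values are linear, and each array's mean after trimming 2% at both ends was the same. Of 45101 probe sets, 64 controls were left out, and 34945 had 1 gene symbol and 932 several in the platform annotation; no gene was named from a probe set with several. The values were turned to log2 after adding 14.2 (their 25th percentile), so fold changes of dim genes are understated. One limma fit (limma 3.58.1, R 4.3.3) of 4 group means with eBayes and a variance trend covered all arrays, with 4 residual degrees of freedom. Of several probe sets, a gene took the one whose log2 values averaged highest over the arrays. Genes whose mean in a cell type reached the 40th percentile were tested, with Benjamini-Hochberg adjustment over all of them and a threshold of 0.05. The difference is the HSC effect minus the ESC effect. The procedure was tested on simulated data with log2 changes of size 1 planted in ESC alone. That is larger than nearly all changes of the members, so it does not show how well changes of their size are called. With 2 arrays a group, their number limits the precision.

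The members and gene lists were chosen with earlier results of these data known. Values on every array are given for the members with the largest absolute change of each role in either cell type and for the 6 with the largest differences; Ccnb2, Nuf2, Tpx2 and a probe set of Ccna2 were added after their values were seen. From further lists up to 3 genes per list and comparison with the largest changes past the threshold were named. Promoters were searched for motifs as exact letters. Alternatives changed the pseudocount, scaling, filter, fit, probe set and arrays. Leaving out probe sets ending in _x_at or _s_at, which may match several transcripts, was chosen after seeing the data. A gene with no other probe set kept its own there. Averages over probe sets gave each probe set of a gene the same weight, also those too dim to be tested. Such dim probe sets entered the averages of Racgap1, Kif23, Top2a, Smc2 and Cenpa, among others.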

Additional observations from a re-analysis of the deposited data

Results flagged for a closer look

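In 24 members the effect of losing Zfx differed between HSC and ESC in the test of the difference itself (limma, HSC effect minus ESC effect, log2 scale). The differences were largest for Cdc25b (1.16, adjusted p = 0.00102) and Nusap1 (1.06, adjusted p = 0.000182), both lower in Zfx-null ESC and higher in Zfx-cko HSC on all arrays. Among cytokinesis genes they were Racgap1 at 0.68, Prc1 at 0.59, Kif23 at 0.55 and Ect2 at 0.51. In the spindle checkpoint the differences were 0.67 for Bub1b, 0.46 for Ttk and 0.31 for Bub1. In the chromosomal passenger complex they were 0.55 for Incenp, 0.42 for Cdca8 and 0.41 for Aurkb. In the anaphase trigger they were 0.51 for Pttg1, 0.48 for Ube2c and 0.38 for Cdc20. Among genes of chromosome structure Mki67 had 0.48, Ncapd2 had 0.45, Top2a had 0.33 and Smc2 had -0.25, the only negative one. Spindle factors had 0.44 for Tpx2, 0.42 for Kif11 and 0.28 for Kif2c. Cenpf had 0.52 and Cdk1 had 0.39. The cell types also differed in RNA amount and rounds of amplification, and the part of these in the differences was not tested.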

How the results depend on the processing

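Directions of called members held under every alternative of scaling, pseudocount, filter, fit and array; 4 members turned with the probe set. The probe set with the highest deposited mean gave Racgap1 -0.056 in HSC. The mean of all probe sets, dim ones included, gave Kif23 -0.092 in HSC and -0.014 for the difference. It gave Smc2 0.14 for the difference, 9 members lower in HSC and 0 lower differences. Leaving out probe sets ending in _x_at or _s_at gave Cdca8 -0.089 in HSC, medians of -0.36 in ESC and -0.20 in HSC, and 4 members higher in HSC. Quantile normalization within cell types gave 0 lower differences, and over all arrays 0, with medians of -0.42 in ESC and -0.066 in HSC. Median centring gave medians of -0.37 in ESC, -0.23 in HSC and 0.18 for the difference, 2 members higher in HSC, and 0 lower and 6 higher differences; over all genes it gave 2725 lower and 2120 higher in HSC, against 2484 and 2833 as deposited, and 2066 lower and 1197 higher differences, against 1977 and 1968. Without the variance trend 19 members were lower in ESC, 7 lower and 2 higher in HSC, and 0 differences lower and 5 higher. The cause of these shifts was not tested. Leaving out 1 array at a time gave 26 to 33 members lower in ESC with medians of -0.41 to -0.37, 9 to 15 lower and 3 to 7 higher in HSC, and 0 to 1 lower and 17 to 22 higher differences. With the replicate number as a block there were 34 lower in ESC, 18 lower and 7 higher in HSC, and 2 lower and 24 higher differences; same-numbered arrays deviated together at r = 0.31 in ESC and 0.06 in HSC over 27022 probe sets, and share only a number. With 2 arrays a group and 4 residual degrees of freedom, a change that missed the threshold is not shown to be absent.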
